A study of Danio rerio with 6 samples.

Results

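The genes described here belong to gene families of the motile cilium and of intraflagellar transport. They were taken by symbol: every gene whose name begins with dnah, dnai, dnaaf, cfap, rsph, tekt or ift, followed by a number, in either case. The rule found 90 of the 31953 genes in the table. Of these, 76 are called axonemal here (37 cfap, 12 dnah, 10 dnaaf, 7 dnai, 6 rsph and 4 tekt genes) and 14 are intraflagellar (the ift genes). The name axonemal follows the symbol alone, so it takes in genes whose products are not parts of the axoneme, such as the assembly factors. All samples were RNA of the mesonephros, the kidney of the adult zebrafish (Danio rerio), from fish carrying the transgene Tg(slc12a3:mCherry). The DL group holds 3 libraries from distal late segments, labelled mCh+, cut out by hand, and the rest group holds 3 libraries from the mesonephros without those segments, labelled mCh-. The transgene labels cells that use the slc12a3 promoter, so the mCh- material is a mixture of every other cell type in the organ. The labels do not say whether libraries came from separate fish or from pools of fish, or whether DL and rest libraries share fish, and a p-value here speaks to the spread between the samples alone, part of which can be technical.

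A motile cilium is built on an axoneme, a ring of doublet microtubules around a central pair. Outer and inner dynein arms on the doublets produce the beat, radial spokes relay signals from the central pair to the arms, and inner proteins such as tektins stiffen the doublets from within. Dynein arms are put together in the cytoplasm by assembly factors. Intraflagellar transport trains, made of the IFT-A and IFT-B complexes, carry building blocks along both motile and immotile cilia. In the zebrafish pronephros, multiciliated cells lie scattered among the transporting cells of the tubule and drive fluid along it, and the transporting cells there bear single cilia. Gene roles given here are mostly known from human, mouse or algal orthologs.

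Total counts ran between 9320756 and 22776825 per library. The 20 most abundant genes took 81.5% of all counts in rest replicate 3 and as much in DL replicate 1, with 37.0% to 56.8% elsewhere, so levels are given as CPM, the number of counts relative to library size after TMM scaling. SLC12A3, the thiazide-sensitive sodium chloride cotransporter whose promoter drives the reporter, had 250.5, 904.5 and 32.9 CPM in DL libraries and 41.9, 30.4 and 43.0 CPM in rest libraries. The library labelled DL replicate 3 therefore lay within the range of rest libraries for the gene that marks the segment. Without it the axonemal members described here had a median log2 fold change of 0.215, with 42 of 70 positive, and the intraflagellar members one of -0.25, with 5 of 14 positive. Germ cell markers stood out in rest replicate 3: 9 of the 10 measured were highest there, and their summed level was between 2.19 and 8.75 CPM in DL libraries and 0.0609, 1.35 and 724.8 CPM in rest replicates 1 to 3. Because these are bulk samples, fewer cells of a type and less RNA per cell cannot be told apart.

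Of the 90 cilium genes, 81 had enough counts to be tested, 68 axonemal and 13 intraflagellar. None passed an adjusted p of 0.05 in either direction by edgeR's quasi-likelihood test over all 17083 genes tested, where 0.0644% of genes were called higher in DL and 0% lower. The smallest adjusted p among the members was 0.203, for cfap263. DESeq2 called 1 member higher, cfap263 again, against 1.36% of all genes called higher and 0.34% called lower. With limma-voom no member was called in either direction, while 0.211% of all genes were called higher and 0% lower.

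At an unadjusted edgeR p under 0.05, 6 members were higher in DL (5 axonemal, 1 intraflagellar) and 0 were lower, which is 7.41% of the members tested. The same threshold took 4.09% of all genes as higher and 2.73% as lower. The same number of members, 6 of 81, were higher in each DL library than in any rest library, again 7.41%, beside 6.82% of all genes. No tested member had every DL library below every rest library, against 6.28% of all genes. The share of tested members with DL above rest was near that of genes at large, while counting both directions the groups did not overlap for 7.41% of members and 13.1% of all genes.

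**Figure D1:**
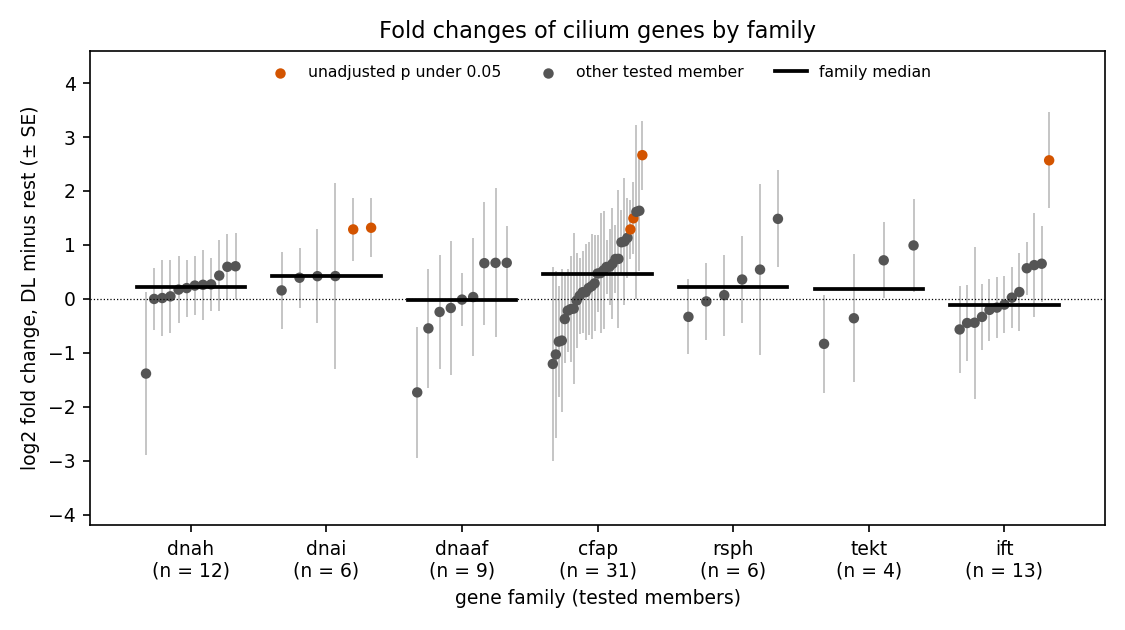
Log2 fold change of DL minus rest for each tested member (points, with standard error bars), grouped by family on the horizontal axis, with the family median as a black line. Most members sit within 1 log2 unit of 0, the 6 orange points have an unadjusted p under 0.05, and the family medians run between -0.11 for ift and 0.47 for cfap.

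The direction of the axonemal genes leaned towards DL more than that of genes at large. The fold change was positive for 48 of the 68 axonemal members tested (70.6%) and for 6 of the 13 intraflagellar members (46.2%), beside 46.5% of all genes. The median log2 fold change of DL minus rest was 0.26 for axonemal members (quartiles -0.04 and 0.66), -0.11 for intraflagellar members (quartiles -0.34 and 0.57) and -0.07 for all genes. By family the median was 0.47 for cfap, 0.42 for dnai, 0.22 for dnah, 0.21 for rsph, 0.18 for tekt and -0.01 for dnaaf. These medians describe the lists and carry no test, and the axonemal one moved most with single rest libraries, as given with the summed levels. Family medians moved with DL replicate 3 as well, the highest library for 20 of 76 axonemal members and 2111 of 17083 genes tested. Without it the median was 0.203 for cfap, 0.352 for dnai, 0.296 for dnah, -0.067 for rsph, -0.168 for tekt and -0.279 for dnaaf.

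The largest difference was in cfap263, also listed as ccdc113, a protein of motile cilia that pairs with CFAP184 in Tetrahymena. Its level was 12.4, 26.65 and 10.3 CPM in DL libraries, against 2.95, 2.27 and 2.54 CPM in rest libraries. Every DL library was above every rest library, by more than 3-fold at the nearest pair. The means were 16.4 ± 8.90 CPM in DL and 2.59 ± 0.34 CPM in rest (SD, n = 3 each), a log2 fold change of 2.66 ± 0.64 (SE). The adjusted p was 0.203 by edgeR and 0.007415 by DESeq2. Of all settings tried, DESeq2 alone called it. Its partner gene cfap184 had 5.97, 3.29 and 5.39 CPM in DL libraries and 5.36, 0.866 and 7.28 CPM in rest libraries, with a log2 fold change of 0.12 ± 0.89, so the groups overlapped.

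**Figure D2:**
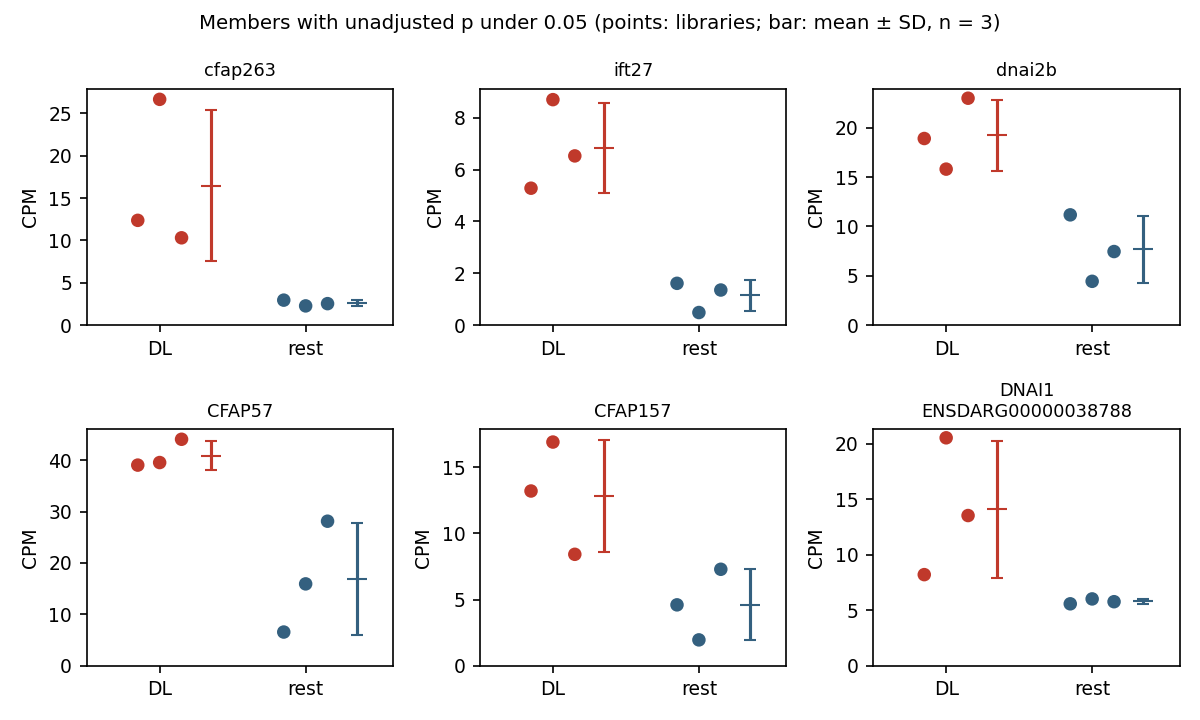
Level in CPM (vertical axes, each starting at 0) of the 6 members with an unadjusted p under 0.05, with a point for each library and the group mean ± SD beside it, DL left of rest. In all 6 panels the lowest DL library lies above the highest rest library, with the largest ratio between these neighbours in cfap263 and the closest neighbours in CFAP157 (8.42 CPM in DL replicate 3 and 7.28 CPM in rest replicate 3).

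Dynein heavy chains are the motors of the arms, and all 12 dnah genes were measured well enough to test. The fold change was positive in 10 of the 12, and no chain separated the groups. Without rest replicate 2 it was positive in 5 of 12, with a median of -0.12, and without rest replicate 3 in 11 of 12, with a median of 1.21. The outer arm chain dnah5l was the member of this family with the most counts, at 292.8, 123.1 and 195 CPM in DL libraries and 99.8, 48.4 and 305.3 CPM in rest libraries. Rest replicate 3 was the highest of the 6 and rest replicate 2 the lowest, so the rest group spanned the whole DL range. Its log2 fold change was 0.43 ± 0.65 (edgeR adjusted p = 0.999). DNAH5, an outer arm chain often mutated in human ciliary dyskinesia, had 58.8, 13.5 and 50.1 CPM in DL libraries and 18.75, 15.7 and 46.25 CPM in rest libraries. Here DL replicate 2 was the lowest of all, and the log2 fold change was 0.60 ± 0.61.

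The 7 inner arm heavy chains (DNAH1, DNAH2, DNAH3, DNAH6, DNAH7, DNAH10 and DNAH12) behaved alike across libraries: all 7 were highest in rest replicate 3, and 5 of 7 were lowest in rest replicate 2. Of all 17083 genes tested, 3547 were highest in rest replicate 3 and 2163 lowest in rest replicate 2. DNAH1 had 58.4, 59.9 and 82.9 CPM in DL libraries and 24.0, 26.75 and 128.6 CPM in rest libraries. DNAH6 had 84.5, 47.1 and 60.5 CPM in DL libraries and 23.4, 19.4 and 118.1 CPM in rest libraries. In both, DL libraries lay between rest replicates 1 and 2 below and rest replicate 3 above. The median log2 fold change of the inner arm chains was 0.25, with 6 of 7 positive, and that of the 5 outer arm chains was 0.05, with 4 of 5 positive. DNAH3 was the exception among the inner arm chains, at 7.78, 0 and 2.27 CPM in DL libraries and 3.10, 0.975 and 22.03 CPM in rest libraries, and its log2 fold change was -1.39 ± 1.52.

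The dynein intermediate chains anchor the motors to the doublets. With all libraries the 6 tested dnai genes had a positive fold change. In 2 of them (33.3%) every DL library was above every rest library, beside 7.41% of all tested members and 6.82% of all genes. Without rest replicate 2 the fold change was positive for 3 of 6, with a median of 0.06, against a median of 0.42 with that library, and without rest replicate 3 for 6 of 6 with a median of 1.17. The first, dnai2b, an outer arm intermediate chain, had 18.9, 15.8 and 22.98 CPM in DL libraries and 11.2, 4.44 and 7.46 CPM in rest libraries. Its means were 19.2 ± 3.60 CPM in DL and 7.69 ± 3.37 CPM in rest (SD, n = 3 each), and the log2 fold change was 1.32 ± 0.55 (edgeR adjusted p = 0.647). The second was DNAI1, the outer arm partner of DNAI2, in its copy ENSDARG00000038788. It had 8.20, 20.5 and 13.5 CPM in DL libraries and 5.57, 6.01 and 5.76 CPM in rest libraries, with rest libraries close together and DL libraries spread. The log2 fold change was 1.29 ± 0.58 (edgeR adjusted p = 0.724). Its other copy, ENSDARG00000100081, had too few counts to test, 0 in all 3 DL libraries and 1, 1 and 32 in rest libraries. Reads that match both copies could be split between them, so both values are uncertain.

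The remaining intermediate chains overlapped between groups. DNAI3, of an inner arm dynein and the family member with the most counts, had 10.7, 15.8 and 23.4 CPM in DL libraries and 11.05, 7.74 and 19.5 CPM in rest libraries, and a log2 fold change of 0.39 ± 0.56. DNAI2 had 1.67, 3.402 and 2.84 CPM in DL libraries and 0, 0.0542 and 6.10 CPM in rest libraries. It was near absent from rest replicates 1 and 2 and highest in rest replicate 3.

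Of the 9 tested genes of dnaaf assembly factors, 4 had a positive fold change, with a median of -0.01, and 8 of all 10 were highest in rest replicate 3. Of all 17083 genes tested, 3547 were highest in that library. Without that library 8 of 9 were positive with a median of 0.98, and with limma-voom and all libraries 7 of 9 with a median of 0.476. Without rest replicate 2 the figures were 3 of 9 and -0.314. The family member with the most counts, dnaaf9, had 32.4, 26.2 and 29.6 CPM in DL libraries and 15.6, 27.2 and 46.4 CPM in rest libraries. DL libraries lay inside the rest range, and the log2 fold change was -0.01 ± 0.49. DNAAF10, known as WDR92, had the smallest p of the family, with 2.64, 1.13 and 0.378 CPM in DL libraries and 1.096, 1.95 and 10.8 CPM in rest libraries. Its log2 fold change of -1.74 ± 1.21 (edgeR adjusted p = 0.937) was -0.13 without rest replicate 3.

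Radial spoke genes were mixed. RSPH1, of the spoke head, had 10.1, 14.9 and 16.8 CPM in DL libraries and 12.5, 1.30 and 0.847 CPM in rest libraries. Rest replicate 1 reached the DL range while rest replicates 2 and 3 were far below it, and the log2 fold change was 1.48 ± 0.90 (edgeR adjusted p = 0.888). RSPH1 was thus a member that did not follow the high level of rest replicate 3. RSPH4A, another head protein, had 7.78, 19.5 and 14.4 CPM in DL libraries and 10.4, 5.69 and 37.1 CPM in rest libraries, with a log2 fold change of -0.33 ± 0.70 that turned to 0.81 without rest replicate 3. Over 9 spoke genes tested, counting CFAP91, cfap206 and cfap251, 5 were positive and the median log2 fold change was 0.07, while without rest replicate 3 these were 8 of 9 and 0.81. Without rest replicate 2 they were 3 of 9 and -0.189. The 2 central pair members, cfap74 and cfap221, had log2 fold changes of 0.12 ± 0.76 and -0.19 ± 0.99.

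Proteins inside the doublets, tektins among them, had a median log2 fold change of 0.68 with all libraries, with 9 of 12 positive, and none separated the groups or had an unadjusted p under 0.05. That median was 0.28 without rest replicate 2 and 1.07 without rest replicate 3. The member with the most counts, cfap210, had 17.2, 39.65 and 66.4 CPM in DL libraries and 16.6, 3.41 and 36.8 CPM in rest libraries. Its lowest DL library was just above rest replicate 1 and below rest replicate 3, and the log2 fold change was 1.13 ± 0.75 (edgeR adjusted p = 0.919). TEKT3 had 17.2, 8.73 and 4.07 CPM in DL libraries and 11.2, 1.79 and 1.86 CPM in rest libraries, a log2 fold change of 0.99 ± 0.87. TEKT4 had 10.8, 8.16 and 15.4 CPM in DL libraries and 10.01, 1.84 and 9.15 CPM in rest libraries, a log2 fold change of 0.71 ± 0.70. TEKT1 and TEKT2 ran the other way, at -0.84 ± 0.91 and -0.36 ± 1.19. The tektin groups overlapped in all 4.

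Among the other cfap genes, 2 more separated the groups. With cfap263, every DL library was above every rest library in 3 of 31 tested cfap genes (9.68%), beside 6.82% of all genes. CFAP57, which in algae helps to place inner arm dyneins, had 39.0, 39.5 and 44.1 CPM in DL libraries and 6.54, 15.9 and 28.1 CPM in rest libraries. DL libraries were close to each other and rest libraries spread over 4-fold. The means were 40.9 ± 2.77 CPM in DL and 16.9 ± 10.8 CPM in rest (SD, n = 3 each), and the log2 fold change was 1.29 ± 0.54 (edgeR adjusted p = 0.656). CFAP157, which in mouse is needed for the sperm flagellum, had 13.2, 16.9 and 8.42 CPM in DL libraries and 4.596, 1.95 and 7.28 CPM in rest libraries. Its log2 fold change was 1.49 ± 0.67 (edgeR adjusted p = 0.716). The lowest cfap fold change was that of CFAP299, at -1.21 ± 1.801, with 0 CPM in DL replicate 1 and in rest replicate 2.

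With all libraries, intraflagellar members gave no common direction, and ift27 was the member apart. This small GTPase of the IFT-B core pairs with IFT25 and in mouse is needed for export of signalling proteins from the cilium rather than for its assembly. It had 5.28, 8.69 and 6.525 CPM in DL libraries and 1.61, 0.487 and 1.355 CPM in rest libraries, so every DL library was over 3-fold above every rest library. The means were 6.83 ± 1.73 CPM in DL and 1.152 ± 0.59 CPM in rest (SD, n = 3 each), with a log2 fold change of 2.57 ± 0.89 and an adjusted p of 0.499 by edgeR and 0.117 by DESeq2. The gene of its partner, hspb11, had 0.973, 0 and 3.12 CPM in DL libraries and 0.213, 2.06 and 2.37 CPM in rest libraries, and the groups overlapped at a log2 fold change of -0.17 ± 1.71.

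IFT172, a large peripheral IFT-B protein and the ift member with the most counts, had 20.8, 37.8 and 46.9 CPM in DL libraries and 16.7, 28.4 and 88.6 CPM in rest libraries. Rest replicate 3 was the highest and the groups overlapped, and the log2 fold change was -0.34 ± 0.61 (edgeR adjusted p = 0.999). IFT88, an IFT-B core protein whose loss gives polycystic kidneys in mouse, had 9.17, 12.5 and 15.98 CPM in DL libraries and 9.38, 9.64 and 23.4 CPM in rest libraries, a log2 fold change of -0.16 ± 0.57. IFT140, the IFT-A member under an ift symbol, had a log2 fold change of -0.11 ± 0.52. Of the 9 IFT-B core members 5 were positive, with a median of 0.02, and of the 3 tested peripheral members 1 was positive, with a median of -0.21. Without rest replicate 3 these were 8 of 9 (median 0.36) and 3 of 3 (median 0.49). Without rest replicate 2 they were 4 of 9 (median -0.07) and 0 of 4 (median -0.44).

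**Figure D3:**
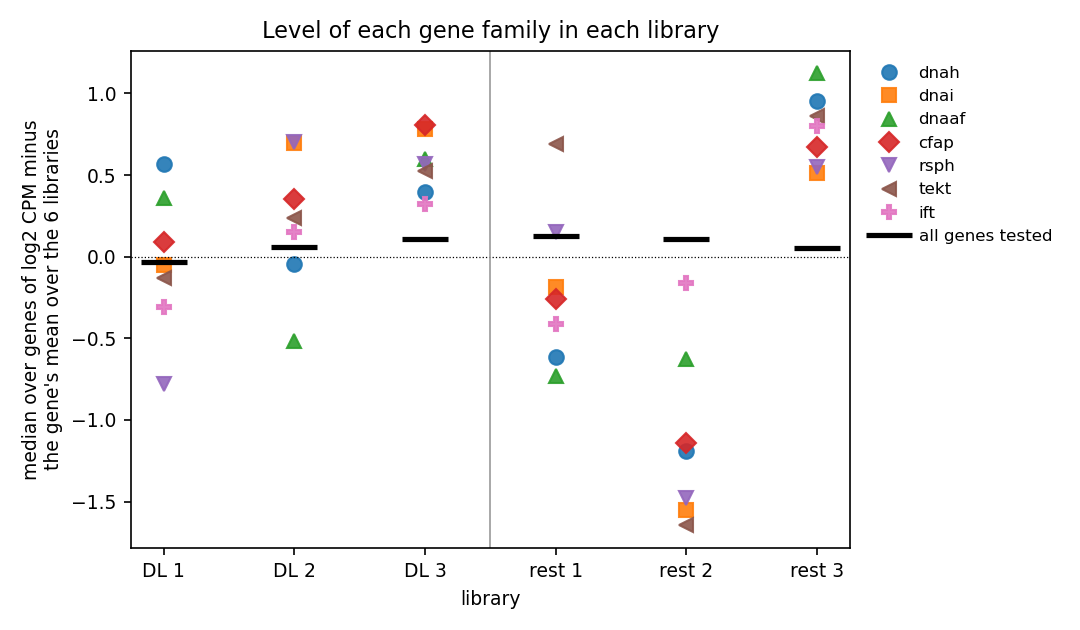
For each library on the horizontal axis, the median over a family's tested genes of log2 CPM minus the gene's mean over the 6 libraries, with DL left of rest and all genes tested as black dashes near 0. Rest replicate 2 has the lowest symbol of every axonemal family except dnaaf, whose lowest is in rest replicate 1, and rest replicate 3 lies above 0 in every family, between 0.51 for dnai and 1.123 for dnaaf.

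The axonemal members summed to 1268, 1043 and 1368 CPM in DL libraries and 661.9, 411.4 and 1786 CPM in rest libraries, with means of 1226 ± 166 CPM in DL and 953.1 ± 732.1 CPM in rest (SD, n = 3 each). The spread of the rest group was larger than the difference. Intraflagellar members summed to 117, 163.6 and 179.8 CPM in DL libraries and 102.1, 123.4 and 243 CPM in rest libraries, with means of 153.5 ± 32.6 CPM in DL and 156.2 ± 75.95 CPM in rest. The ratio of axonemal to intraflagellar sums, which does not depend on library scaling, was 10.8, 6.38 and 7.61 in DL libraries and 6.485, 3.34 and 7.36 in rest libraries. Its means were 8.274 ± 2.303 in DL and 5.73 ± 2.11 in rest (SD, n = 3 each), and the groups overlapped.

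**Figure D4:**
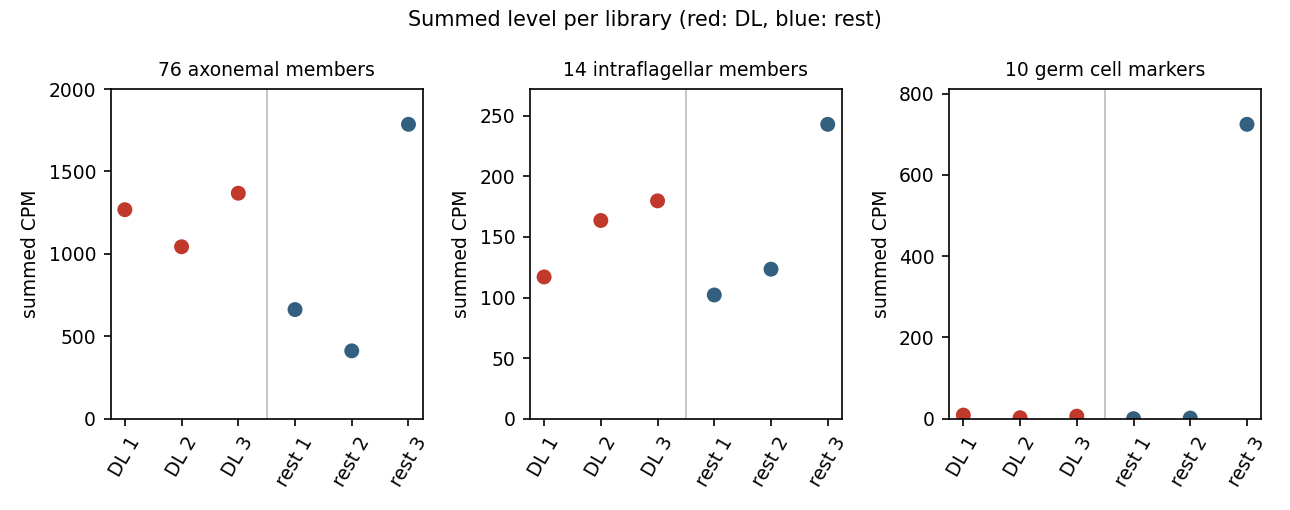
Summed CPM per library (vertical axes from 0) of the axonemal members, the intraflagellar members and the 10 germ cell markers, with DL libraries in red left of rest libraries in blue. After TMM scaling, rest replicate 3 is highest in all 3 panels, at 1786, 243 and 724.8 CPM, and in the germ cell panel the other 5 libraries are near 0.

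Rest replicate 3, where the germ cell markers were high, was in CPM the highest library for 38 of the 76 axonemal and 9 of the 14 intraflagellar members. It was the highest for 3547 of the 17083 genes tested. The TMM factor was 0.533 there, 0.52 in DL replicate 1 and between 1.138 and 1.801 elsewhere. Before scaling, axonemal members took 0.0949% of all counts in that library. They took 0.119% and 0.0619% in rest replicates 1 and 2, and 0.0658%, 0.121% and 0.155% in DL libraries. Intraflagellar members took between 0.00608% and 0.0204% elsewhere and 0.0129% in rest replicate 3. Sperm carry axonemes, and among the markers DDX4 had 231.3 CPM, PIWIL1 232.3 CPM and SYCP1 54.6 CPM in that library, while odf3l2a was at 0 in all 6. Their part in the level of the cilium genes there was not tested. With rest replicate 3 left out, 66 of 71 axonemal members tested had a positive fold change, with a median of 1.03, and 12 of 13 intraflagellar members, with a median of 0.42, while the median of all genes was -0.01. Then 14 axonemal members had an unadjusted p under 0.05, among them DNAH1, DNAH2, DNAH6, DNAH12, dnah5l, dnah9, DNAI2, CFAP45 and CFAP58, beside 3.93% of all genes higher in DL. None of them passed the adjusted threshold, the smallest adjusted p being 0.572 for cfap263 (edgeR). Of all 18669 genes then tested, 0 were called higher and 0 lower, so this is no result about the members. Of the members in the fit to all libraries, 26 of 68 axonemal ones (38.2%) and 3 of 13 intraflagellar ones (23.1%) had every DL library above rest replicates 1 and 2, beside 10.4% of all genes. Rest replicate 3, set aside for these counts, was the highest library for a larger share of members than of all genes. Setting it aside therefore raises the members' values by itself, so these counts carry no support for a difference. The same holds for the dnah, dnai, dnaaf, radial spoke and intraflagellar values given without it.

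Rest replicate 2 was the lowest library for 41 of the 76 axonemal members but for 2 of the 14 intraflagellar members. Over all 17083 genes tested it was the lowest for 2163. Blood markers were high in it: the 4 measured summed to 14.6, 241.9 and 474.1 CPM in DL libraries and 66.4, 968.2 and 198.2 CPM in rest libraries, and their part was not tested. With rest replicate 2 left out, 34 of 71 axonemal members were positive, beside 47.7% of all genes, with a median of -0.05, beside -0.05 for all genes. Then 1 axonemal member had an unadjusted p under 0.05, beside 3.1% of all genes higher in DL. Rest replicate 2 was the lowest library for a larger share of axonemal members than of all genes. Leaving it out therefore lowers the axonemal values by itself, so they carry no support for the absence of a difference. The same holds for the dnah, dnai, dnaaf, radial spoke and doublet protein values given without it. The intraflagellar median was then -0.25, with 4 of 14 positive. In every setting tried the axonemal median stayed above the intraflagellar one, by between 0.20 and 0.69 (0.37 with all libraries).

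**Figure D5:**
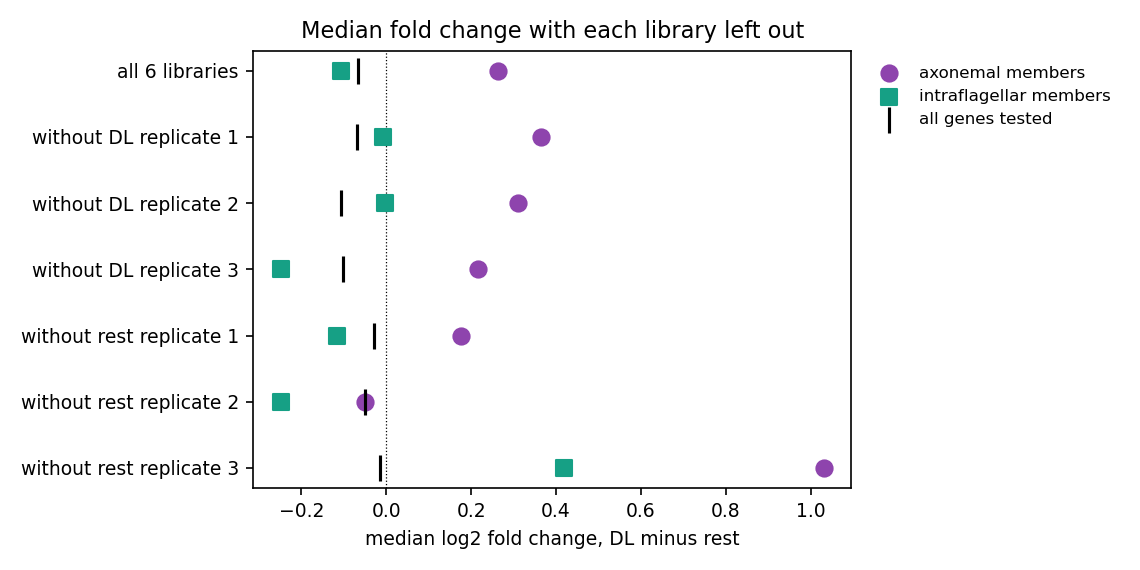
Median log2 fold change of DL minus rest (horizontal axis) of the axonemal members, the intraflagellar members and all genes tested, with all 6 libraries and with each library left out (rows). The axonemal median lies at 1.03 without rest replicate 3 and at -0.05 without rest replicate 2, and in each row it is to the right of the intraflagellar median.

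Other genes of the axoneme, listed under other symbols, leaned the same way. Of 64 tested, 48 had a positive log2 fold change, with a median of 0.56, and in 11 (17.2%) each DL library exceeded all rest libraries, beside 6.82% of all genes. An unadjusted edgeR p under 0.05 was reached by 3 of the 64 (4.69%), all higher in DL, beside 4.09% of all genes. None was called by any of the 3 tools. The smallest p was that of mycbpap, the gene of a MYCBP-associated protein, with 11.4, 21.02 and 14.7 CPM in DL libraries and 4.35, 2.17 and 7.96 CPM in rest libraries, a log2 fold change of 1.72 ± 0.65 (edgeR adjusted p = 0.550). The central pair gene hydin, the most abundant of the list, had 60.6, 74.6 and 99.9 CPM in DL libraries and 45.2, 46.6 and 85.6 CPM in rest libraries, a log2 fold change of 0.41 ± 0.45, and its groups overlapped. This list moved with the same libraries: without rest replicate 3, 59 of 67 were positive with a median of 1.07, and without rest replicate 2 the figures were 44 of 70 and 0.31.

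The remaining ciliary lists had medians nearer to 0 in the edgeR fit to all libraries. Of 7 further IFT subunits tested 3 were positive (median -0.16), of 12 IFT motor genes 6 (median 0.09), of 12 BBSome genes 5 (median -0.10), and of 27 genes of the transition zone and primary cilium 14 (median 0.16). These values moved with rest replicate 3 as well: without it 7 of 7 further IFT subunits were positive (median 0.93), 9 of 12 motor genes (median 0.45), 9 of 12 BBSome genes (median 0.53) and 20 of 27 transition zone genes (median 0.475). That library was the highest for 4 of 7, 5 of 13, 5 of 13 and 14 of 28 genes measured in these lists. Each share was larger than that of all genes, so leaving it out raises the values by itself. Without rest replicate 2 the further IFT subunits had 3 of 7 positive (median -0.368) and motor genes 5 of 12 (median -0.052). BBSome genes then had 5 of 12 (median -0.264) and transition zone genes 15 of 27 (median 0.192). With limma-voom and all libraries 5 of 7 further IFT subunits were positive (median 0.703) and 7 of 12 motor genes (median 0.388). BBSome genes were then 8 of 12 (median 0.248) and transition zone genes 17 of 27 (median 0.165). The axonemal genes under other symbols were 60 of 64 (median 1.091) by that tool. KIF3A, a subunit of the kinesin that moves IFT trains outwards, had 18.1, 33.5 and 28.75 CPM in DL libraries and 14.8, 14.7 and 15.6 CPM in rest libraries, with a log2 fold change of 0.84 ± 0.46 (edgeR adjusted p = 0.832), so its groups did not overlap. TRAF3IP1, known as IFT54, had 17.2, 18.9 and 28.2 CPM in DL libraries and 13.55, 9.26 and 11.7 CPM in rest libraries, with a log2 fold change of 0.90 ± 0.485 (edgeR adjusted p = 0.825). Its DL libraries were all above the rest libraries, as with KIF3A. This held for 1 of 12 tested motor genes (8.33%) and 1 of 7 further IFT subunits (14.3%). Over all genes the share was 6.82%. In the BBSome list, BBS5 had 0.417, 1.625 and 2.08 CPM in DL libraries and 0, 0.596 and 0 CPM in rest libraries, and lztfl1, a regulator of the BBSome, had 7.64, 11.2 and 7.94 CPM in DL libraries and 17.4, 9.48 and 2.03 CPM in rest libraries. Both overlapped between groups. The polycystin gene pkd1a had 62.9, 26.01 and 39.3 CPM in DL libraries and 85.5, 67.4 and 42.5 CPM in rest libraries, a log2 fold change of -0.61 ± 0.475 (edgeR adjusted p = 0.960).

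Of the 16 tested regulators of multiciliated cells and of basal body amplification, 4 had a positive fold change, with a median of -0.35. Over all genes 46.5% were positive, with a median of -0.07. The list mixes genes that promote the multiciliated fate with genes that limit it, so its median gives no direction for that programme. The median of the regulators was -0.13 without DL replicate 2 (6 of 17 positive) and -0.13 without rest replicate 3 (7 of 17 positive). Without DL replicate 3 it was -0.635 (4 of 16 positive) and without DL replicate 1 -0.238 (6 of 17 positive). Without rest replicate 1 it was -0.404 (6 of 16 positive) and without rest replicate 2 -0.431 (3 of 17 positive). It was 0.05 without both DL replicate 1 and rest replicate 3 (9 of 17 positive). FOXJ1, the transcription factor that switches on motile cilium genes, had 72.25, 51.3 and 71.9 CPM in DL libraries and 33.7, 18.4 and 54.6 CPM in rest libraries. Rest replicate 3 was just above DL replicate 2, and the log2 fold change was 0.88 ± 0.48 (edgeR adjusted p = 0.830). FOXJ1 was thus lowest in rest replicate 2 and highest of the rest group in rest replicate 3, the order that the axonemal sums had among rest libraries. Its relative foxj1b had 8.48, 21.02 and 28.3 CPM in DL libraries and 16.6, 9.26 and 7.79 CPM in rest libraries, a log2 fold change of 0.78 ± 0.58. It was lowest in rest replicate 3, so it did not share that order. In a further list of multiciliated cell markers 2 of 3 tested were positive, with a median of 0.135. The median of these markers was -0.382 without DL replicate 3 (1 of 3 positive) and 0.53 without rest replicate 3 (4 of 4 positive). The 5 measured summed to 23.2, 50.2 and 88.2 CPM in DL libraries and 48.7, 29.1 and 54.4 CPM in rest libraries. Among the regulators, the geminin relative gmnc, which starts the multiciliated programme, was at 0 in all 3 DL libraries and had 0.700, 0.217 and 0 CPM in rest libraries. The Notch ligand jag2a, which in the zebrafish pronephros limits multiciliated cells, had 4.31, 6.50 and 9.55 CPM in DL libraries and 15.7, 27.7 and 11.01 CPM in rest libraries. Every DL library was below every rest library, and the log2 fold change was -1.42 ± 0.58 (edgeR adjusted p = 0.647). Such a separation held for 2 of the 16 tested regulators (12.5%), beside 6.28% of all genes, and 0 regulators had DL above rest. The Notch receptor gene NOTCH3 had 70.6, 41.4 and 57.1 CPM in DL libraries and 58.4, 170.4 and 70.8 CPM in rest libraries, a log2 fold change of -0.83 ± 0.51 (edgeR adjusted p = 0.892).

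The 9 members with too few counts to test were CFAP68, CFAP73, CFAP96, CFAP300, cfap119, cfap144, dnaaf3, IFT20 and the DNAI1 copy given with the intermediate chains. CFAP300, a dynein assembly factor, had 19, 20 and 6 counts in DL libraries and 5, 0 and 0 counts in rest libraries. CFAP68 had 0, 1 and 3 counts in DL libraries and 106, 0 and 0 counts in rest libraries, so nearly all of its counts lay in 1 library. IFT20, a peripheral IFT-B protein that also works at the Golgi, had 0, 0 and 5 counts in DL libraries and 39, 3 and 10 counts in rest libraries. These genes did not pass the filter, so no fold or test is given for them.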

How the data were processed

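RNA-seq libraries were made from hand-dissected tissue with a NuGEN single-cell RNA-seq kit (Ovation), per the labels' protocols. The authors deposited 1 table of expected counts (estimated counts, in part fractional) per Ensembl gene, and which aligner, counter and build they used is not given in the sources used here. Symbols were matched by identifier for 26121 of 31953 genes. Counts were rounded to whole numbers, filtered with filterByExpr by group (17083 genes left), scaled by TMM and compared as DL minus rest with the robust quasi-likelihood test of edgeR 4.0.16 (R 4.3.3), with Benjamini-Hochberg adjustment over all genes tested at 0.05. The standard error of a log2 fold change was taken as its size divided by the root of the F statistic. CPM values use the TMM-scaled library size.

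Replicate numbers are in accession order and pair no libraries. The cilium genes, their roles, the companion lists and the tests were chosen with earlier results of these data known. Named are, in each family, the member with the smallest p and the one with the most counts, and every member with an unadjusted p under 0.05 or called by any tool. From the companion lists, called genes and those with the smallest p and the most counts are named by rule. Other genes were named after their values were seen. Alternatives were DESeq2 1.42.0, limma-voom (limma 3.58.1) with sample quality weights, other scalings and filters, and leaving out each library. Leaving out rest replicate 3 and DL replicate 1 at once was added after the data were seen. The procedure was tested on simulated counts, with large changes set in well-expressed genes and no shift of whole libraries. That check does not speak to small changes or to genes at low levels. No strand setting is given, so overlapping and antisense genes are uncertain, and reads carry no molecular identifiers. CPM is not per length, so levels are not compared between genes.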

Additional observations from a re-analysis of the deposited data

How the results depend on the processing

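No paired analysis was possible because the labels give the groups no shared replicate numbers and do not say which libraries, if any, share fish. No member was called higher or lower over all genes in any setting except DESeq2, which called 1 (cfap263, adjusted p between 0.007415 and 0.999 over all settings). With DL replicate 1, DL replicate 2 or any 1 rest replicate left out, 0 of all genes were called in either direction. The same was so without both DL replicate 1 and rest replicate 3, so these settings give no result about the members. The other settings except DESeq2 called 1 to 99 of all genes higher and 0 to 7 lower. Axonemal members higher in DL at an unadjusted p under 0.05 numbered 10 with limma-voom (5.18% of all genes passed as higher), 1 with scaling by library size only (1.14% of all genes), between 1 and 14 with each library left out (2.88% to 5.06% of all genes), and 14 without DL replicate 1 and rest replicate 3 (3.37% of all genes). Intraflagellar ones higher in DL numbered 0 with library size only, 0 to 1 with each library left out. Lower in DL at that threshold were 2 of 14 intraflagellar members without DL replicate 3 and 1 of 76 axonemal members with no filter. The share of all genes lower in DL was 2.73% in the main fit and was not counted in those settings. These counts are therefore not read as a result about the members. The axonemal median log2 fold change was 0.806 with limma-voom (58 of 68 positive), ran between -0.051 and 1.032 with each library left out and was 1.106 without both libraries. The intraflagellar median was 0.118 with limma-voom, between -0.249 and 0.419 with each library left out, and 0.59 without both.

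Among named members, dnaaf9 turned positive with limma-voom (0.064) and no filter (0.014), ran between -0.314 and 0.476 with each library left out (0.072 without DL replicate 2, 0.027 without DL replicate 3), and was 0.395 without both. RSPH4A was 0.415 with limma-voom, between -0.747 and 0.812 with each left out (0.016 without DL replicate 1), and 1.088 without both. TEKT3 was -0.009 both with library size only and without both libraries, and between 0.39 and 2.455 with each left out. IFT172 ran between -0.718 and 0.666 with each left out and was 0.922 without both. The cause was not tested. Scaling by library size only moved the median of all genes to -0.504, against -0.066, and relative to it the axonemal median was 0.71 higher and the intraflagellar one 0.27 higher.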

Other observations

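In rest replicate 3, genes of meiosis, chosen after the germ cell markers were seen, were also high: 7 genes summed to 2.92, 0.0756 and 2.55 CPM in DL libraries and 0, 2.11 and 151.1 CPM in rest replicates 1 to 3. Oocyte genes, 8 chosen at the same time, summed to 3.47, 0.605 and 0.473 CPM in DL libraries and 1.19, 5.74 and 8.13 CPM in rest replicates 1 to 3, so they did not stand apart there in the same way. The germ cell markers TDRD9, TDRD1 and PIWIL2 had 89.8, 58.3 and 29.99 CPM in rest replicate 3 and at most 2.12 CPM in any other library.

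Of the transition zone genes, the copy of iqcb1 with the identifier ENSDARG00000093431 had 1.53, 2.65 and 1.70 CPM in DL libraries and 0, 0.0542 and 0.169 CPM in rest libraries. Every DL library was above every rest library, with rest levels near 0, and the edgeR adjusted p was 0.533. Reads that match another copy of the gene could be split, so its values are uncertain. Of the 27 transition zone genes tested, 4 (14.8%) had DL above rest in this way, beside 6.82% of all genes. Counting both directions, the groups did not overlap for 22.2% of that list and 13.1% of all genes. IQCB1, also called nephrocystin 5, is a protein of the transition zone whose loss gives kidney and retinal disease in human. PKD2, a ciliary calcium channel whose loss gives polycystic kidneys, ran the other way, with 23.9, 14.5 and 24.96 CPM in DL libraries and 28.2, 39.15 and 31.2 CPM in rest libraries, a log2 fold change of -0.64 ± 0.44 (edgeR adjusted p = 0.935). Both were named after their values were seen.

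Markers of other kidney cells overlapped in summed level. Podocyte markers averaged 230.2 ± 54.4 CPM in DL libraries and 334.2 ± 121.4 CPM in rest libraries, proximal tubule markers 308.9 ± 58.6 CPM in DL libraries and 418.2 ± 188.8 CPM in rest libraries, and endothelium markers 335.1 ± 201.3 CPM in DL libraries and 409.3 ± 63.5 CPM in rest libraries (SD, n = 3 each). Of the podocyte genes, NPHS1 had 31.0, 19.4 and 35.9 CPM in DL libraries and 64.1, 53.9 and 43.4 CPM in rest libraries, so every DL library was below every rest library. It was the 1 such gene of 3 podocyte markers (33.3%), beside 6.28% of all genes.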
